A study of Mus musculus with 16 samples.

Results

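The genes described here encode the last steps of glycolysis and the enzymes that decide where pyruvate goes: Pgk1, Pgam1 and Pkm, the lactate dehydrogenases Ldha and Ldhb, the pyruvate dehydrogenase kinases Pdk1, Pdk2, Pdk3 and Pdk4, and their substrate subunit Pdha1. They were taken by symbol, and all 10 were found among the 25719 listed mouse genes. RNA was sequenced from tail tendon fascicles, the fine strands of tendon that can be pulled out of a mouse tail, in 16 libraries. Of these, 8 were labelled knockout: per the series' design text these mice carry ScxCre and floxed Vhl (ScxCre;Vhlf/f), so that Cre driven by the tendon gene Scx removes Vhl in cells of the Scx lineage and leaves it in all others. The other 8 were labelled wild type, with no statement on floxed or Cre alleles in them. Age, sex and whether each library came from its own animal are not given in the sources used here. The p-values therefore set the genotype difference against the spread between these libraries. If libraries share animals, that spread can understate the spread between animals, and the p-values would be too small.

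Phosphoglycerate kinase (Pgk1) and phosphoglycerate mutase (Pgam1) carry the 3-carbon sugars towards pyruvate, and pyruvate kinase (Pkm) makes pyruvate itself. Lactate dehydrogenase, a tetramer of A subunits (Ldha) and B subunits (Ldhb), turns pyruvate into lactate and back, whereas the pyruvate dehydrogenase complex, whose catalytic E1 alpha subunit is Pdha1, turns it into acetyl-CoA in mitochondria. The pyruvate dehydrogenase kinases phosphorylate E1 alpha and switch the complex off, and the phosphatases Pdp1 and Pdp2 switch it on again. VHL is part of the ubiquitin ligase that removes hydroxylated HIF alpha subunits, and Pgk1, Ldha and Pdk1 are classic targets of HIF1.

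Total counts per library ran from 10488355 to 18753254. Values below are counts relative to library size (CPM), with library sizes scaled by the trimmed mean of M-values (TMM), and a gene is called at an adjusted p under 0.05 (edgeR, quasi-likelihood F test, Benjamini-Hochberg over all 14803 tested genes). Vhl spanned 7.51 to 10.9 CPM in knockout and 14.1 to 25.8 CPM in wild type libraries, so each library followed its label. The tendon markers fixed for the check (Scx, Tnmd, Mkx, Col1a1, Col1a2, Fmod, Thbs4, Comp and Kera) were present in every library, with summed levels of 77587 to 181187 CPM in knockout and 130878 to 380895 CPM in wild type libraries; 6 of the 9 were called lower and 1 higher in the knockout. Scx itself varied from 54.5 to 1251 CPM, with high values in knockout libraries 5, 6 and 8 and wild type library 8. Without these 4, Ldha was at a log2 fold change of 2.18 and Pdk1 at 1.53, both called, and the call of Pdk4 was lost (1.48, edgeR adjusted p = 0.0854). Other cell types were present as well: 14 skeletal muscle markers summed to 208 to 11837 CPM in knockout and 58.8 to 5479 CPM in wild type libraries, and 10 endothelial markers to 56.4 to 503 CPM and 31.6 to 52.4 CPM. In bulk tissue, fewer cells of a type and less RNA per cell cannot be told apart.

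The knockout had more RNA of Pgk1, Pgam1 and Pkm, of Ldha, and of the kinases Pdk1 and Pdk3. Pdk4 was also called higher and Pdha1 slightly lower, but these calls held in only 10 and 16 of 28 alternatives, and Pdha1 turned positive with total counts. All 10 genes passed the filter on low counts. Of them 7 were higher, 1 was lower and 2 did not pass the threshold. The same test called 48.3% of all tested genes, 25.6% higher and 22.7% lower. In 6 of the genes (Pgk1, Pgam1, Pkm, Ldha, Pdk1 and Pdk3) all knockout libraries lay above all wild type libraries, a pattern shown by 10.8% of tested genes. All 7 higher genes were at least 2-fold higher, as were 8.30% of tested genes, and none of the 10 was called at least 2-fold lower, as were 4.91%. The median log2 fold change of the 10 genes was 1.68, against 0.02 over all tested genes.

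**Figure D1:**
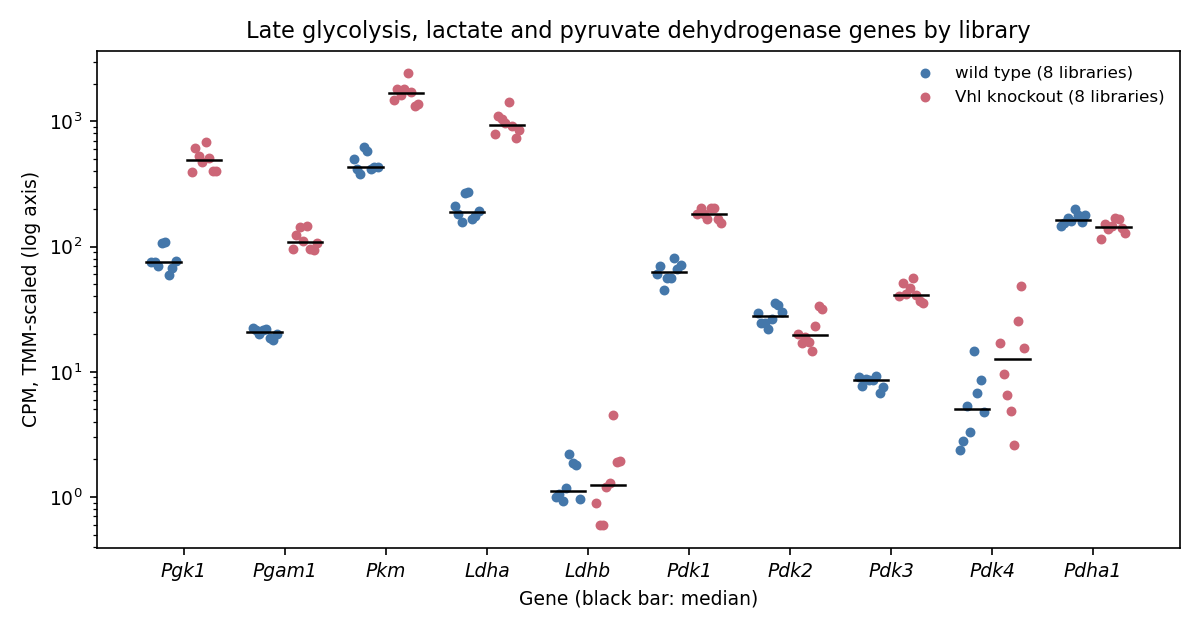
CPM of each gene in 8 wild type (blue) and 8 Vhl knockout (red) libraries on a log axis, with the median as a black bar and 1 point per library. Pgk1, Pgam1, Pkm, Ldha, Pdk1 and Pdk3 show no overlap between the genotypes, Ldhb sits near 1 CPM in both, and Pdk4 spreads from 2.35 to 48.1 CPM over all libraries.

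Pgk1 (ENSMUSG00000062070, chromosome X) ranged from 59.1 to 108 CPM in the wild type, with a median of 75.3, and from 394.9 to 686 CPM in the knockout, with a median of 489.9. The lowest knockout library was thus far above the highest wild type library. The rise was 6.26-fold (log2 fold change 2.65, SE 0.148, edgeR adjusted p = 2.76e-11). Pgam1 (ENSMUSG00000011752, chromosome 19) was held between 17.8 and 22.3 CPM in the wild type, median 20.8, and lay between 93.4 and 146 CPM in the knockout, median 108. Its rise was 5.55-fold (2.47, SE 0.101, adjusted p = 2.41e-13), and its wild type libraries varied least of all 10 genes, with a coefficient of variation of 8.12%.

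Pkm (ENSMUSG00000032294, chromosome 9) was the most abundant of the 10 genes in both genotypes. It ranged from 376 to 622 CPM in the wild type, median 431, and from 1321 to 2413 CPM in the knockout, median 1667. The rise was 3.58-fold (log2 fold change 1.84, SE 0.133, edgeR adjusted p = 9.24e-10). Counts per gene do not separate the M1 and M2 splice forms of pyruvate kinase. In the GENCODE M21 annotation 767 bases of Pkm exons also belong to Gm49759, a predicted gene on the same strand, so the split of reads between them is uncertain. Gm49759 itself was higher in the knockout, with a log2 fold change of 1.92.

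Ldha (ENSMUSG00000063229, chromosome 7), which encodes the A subunit typical of tissues that make lactate, ranged from 157 to 274 CPM in the wild type, median 187, and from 731 to 1412 CPM in the knockout, median 942. No library of either genotype reached the range of the other. Ldha rose 4.81-fold (log2 fold change 2.27, SE 0.148, edgeR adjusted p = 2.04e-10). Pseudogene copies named after Pgk1, Pgam1 and Ldha are annotated in GENCODE, and reads shared with such copies were not analysed here.

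Ldhb (ENSMUSG00000030246, chromosome 6), which encodes the B subunit typical of heart and other oxidative tissue, was barely present. It ranged from 0.936 to 2.21 CPM in the wild type, median 1.12, and from 0.595 to 4.51 CPM in the knockout, median 1.25, on 7 to 89 counts per library. The groups overlapped and the test did not call it (log2 fold change 0.29, SE 0.367, 95% interval -0.43 to 1.01, edgeR adjusted p = 0.539). Knockout library 6, with 4.51 CPM, set the positive sign: without it the log2 fold change was -0.16. Within a library the log2 ratio of Ldha to Ldhb counts, which does not depend on scaling between libraries, was 7.20 ± 0.499 for wild type and 9.48 ± 1.08 for knockout libraries (SD, n = 8). The difference of 2.27 was larger than the spread (2-sided exact permutation test over 12870 assignments, p = 0.000311, 0.000373 adjusted over 6 ratios), although the highest wild type library, at 7.78, overlapped the lowest knockout library, at 7.66.

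The kinases split into members that rose in every knockout library and members that did not. Pdk1 (ENSMUSG00000006494, chromosome 2) ranged from 44.95 to 81.2 CPM in the wild type, median 63.1, and from 154 to 202 CPM in the knockout, median 181. It was the steadiest of the 10 genes in the knockout, with a coefficient of variation of 10.2%, and it rose 2.88-fold (log2 fold change 1.52, SE 0.1005, edgeR adjusted p = 2.35e-10). Pdk3 (ENSMUSG00000035232, chromosome X), described in textbooks as a kinase of restricted tissue distribution, ranged from 6.77 to 9.28 CPM in the wild type, median 8.61, and from 35.5 to 56.5 CPM in the knockout, median 41.4. Its rise was 5.27-fold (2.40, SE 0.101, adjusted p = 3.78e-13). No test of the difference between the rises of Pdk3 and Pdk1 was made.

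Pdk2 (ENSMUSG00000038967, chromosome 11), a broadly expressed kinase, ranged from 22.0 to 35.4 CPM in the wild type, median 27.9, and from 14.7 to 33.5 CPM in the knockout, median 19.5. Knockout libraries 6, 7 and 8, at 23.3, 33.5 and 31.8 CPM, lay inside the wild type range and the other 5 lay below it. The log2 fold change was -0.35 (SE 0.162, edgeR adjusted p = 0.0830), short of the threshold, while leaving out knockout replicate 7 gave -0.46 (adjusted p = 0.0146) and leaving out knockout replicate 8 gave -0.44 (adjusted p = 0.0261). With the replicate number as a block it was -0.39 (edgeR adjusted p = 0.00554), though replicate numbers did not pair the libraries. With total counts it was -0.04 (edgeR adjusted p = 0.84). Pdk2 passed the threshold in only 5 of 28 alternatives. Pdk4 (ENSMUSG00000019577, chromosome 6), the kinase known for its induction by fasting and fatty acids in muscle and heart, ranged from 2.35 to 14.6 CPM in the wild type, median 5.02, and from 2.62 to 48.1 CPM in the knockout, median 12.6. The groups overlapped widely, with the lowest knockout library at the bottom of the wild type range. Its log2 fold change of 1.44 (SE 0.563, adjusted p = 0.0462) was just past the threshold and lost it when any of 11 single libraries was left out (knockout 1, 6, 7 and 8, and wild type 1, 2, 3, 4, 6, 7 and 8), with 0.96 (adjusted p = 0.128) without knockout replicate 7. With the replicate block it was 1.23 (adjusted p = 0.129).

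Per length of exon, the kinase makeup differed between the genotypes. In the wild type Pdk2 held 40.5% ± 2.95 of the summed kinase level, Pdk1 36.9% ± 4.30, Pdk3 15.0% ± 2.66 and Pdk4 7.65% ± 4.72 (SD, n = 8). In the knockout Pdk1 held 45.1% ± 4.56, Pdk3 33.0% ± 5.97, Pdk2 13.4% ± 4.00 and Pdk4 8.47% ± 6.94 (SD, n = 8). The shares of Pdk2 did not overlap (8.70% to 20.9% against 36.2% to 44.2%), nor did those of Pdk3 (23.9% to 41.3% against 10.9% to 18.5%), whereas those of Pdk1 and Pdk4 did. Shares are parts of a whole, so the rises of Pdk1 and Pdk3 lower the Pdk2 share even where Pdk2 is unchanged. The level of Pdk2 itself was not called (log2 fold change -0.35, edgeR adjusted p = 0.0830). Lengths are those of GENCODE M21 and transcript ends in tendon may differ; with the longest basic coding transcript of each gene the Pdk1 share in the knockout was 50.03%. The log2 ratio of Pdk1 to Pdk2 counts was 1.16 ± 0.211 for wild type and 3.09 ± 0.539 for knockout libraries (SD, n = 8; exact permutation test, p = 0.000155, the smallest value this design can give; 0.000233 adjusted over 6 ratios), with no overlap. For Pdk4 to Pdk2 it was -2.44 ± 0.818 and -0.91 ± 1.02 (exact permutation test, p = 0.00622, also 0.00622 adjusted; n = 8), with overlap.

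**Figure D2:**
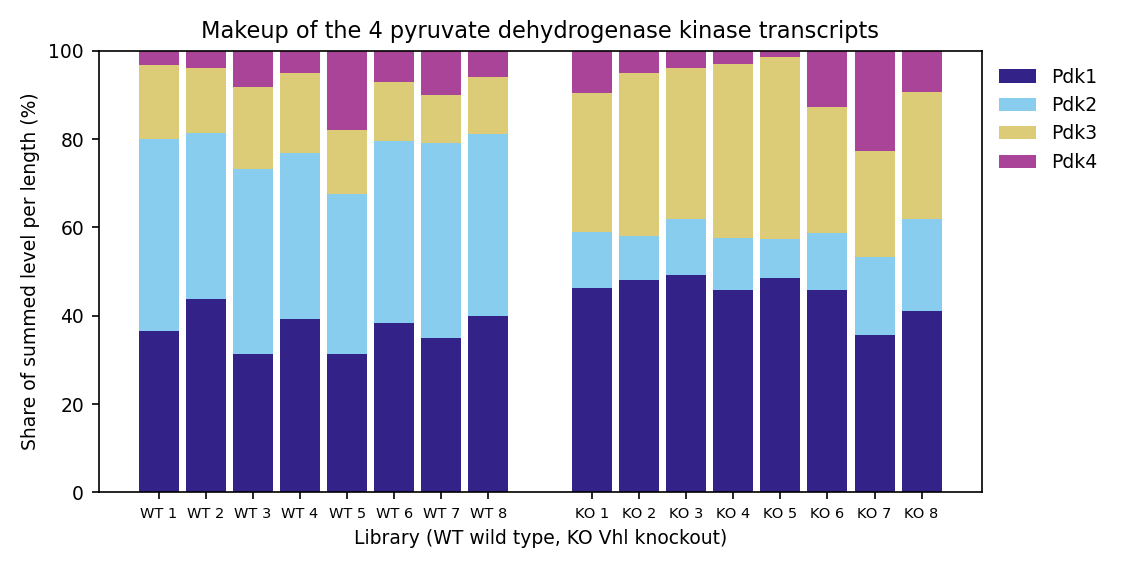
Share of Pdk1, Pdk2, Pdk3 and Pdk4 in the summed kinase level per kilobase of exon, in percent, 1 stacked bar for each wild type (WT) and knockout (KO) library. Pdk2 takes 36.2% to 44.2% of the wild type bars and 8.70% to 20.9% of the knockout bars, and Pdk3 grows from at most 18.5% to at least 23.9%. A smaller share of Pdk2 does not by itself mean less Pdk2 RNA, since the other kinases rose.

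Pdha1 (ENSMUSG00000031299, chromosome X), the subunit that the kinases phosphorylate, was close to equal in the genotypes. It ranged from 144.5 to 198 CPM in the wild type, median 164, and from 115 to 169 CPM in the knockout, median 143, with wide overlap. The log2 fold change was -0.21 (SE 0.0828, edgeR adjusted p = 0.0401). This call was lost when any of 8 single libraries was left out (knockout 1, 3, 4, 7 and 8, and wild type 5, 6 and 8), and with total counts in place of TMM the value was 0.09 (adjusted p = 0.457), where the median of all tested genes was 0.32. Of its exon bases 603 overlap Map3k15 on the opposite strand, so the split of reads is uncertain as the strand of counting is not given in the sources used here. The ratios to Pdha1 within a library moved far more than Pdha1 itself. They mostly restate the rises of Pdk1, Ldha and Pkm given above and are not separate evidence. The log2 ratio of Pdk1 to Pdha1 went from -1.42 ± 0.297 to 0.34 ± 0.151, that of Ldha to Pdha1 from 0.26 ± 0.306 to 2.74 ± 0.229, and that of Pkm to Pdha1 from 1.48 ± 0.281 to 3.54 ± 0.196 (wild type to knockout, SD, n = 8). None of these 3 ratios overlapped between the genotypes (exact permutation tests, each p = 0.000155, the smallest possible here, and 0.000233 adjusted over 6 ratios).

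In order of level per kilobase of exon, wild type tendon had Pkm (94.4 ± 17.6 CPM per kilobase) above Ldha (61.3 ± 13.6), Pdha1 (44.8 ± 4.63), Pgk1 (35.6 ± 8.00), Pgam1 (10.3 ± 0.840), Pdk2 (8.93 ± 1.50), Pdk1 (8.13 ± 1.43), Pdk3 (3.24 ± 0.338), Pdk4 (1.72 ± 1.15) and Ldhb (0.877 ± 0.317; SD, n = 8). Only Pgk1 over Pgam1 and Pdk1 over Pdk3 were steps without overlap between neighbours in that order. In the knockout Pgk1 (222 ± 47.0) and Pgam1 (57.5 ± 10.6) stood above Pdha1 (38.7 ± 4.93), and Pdk3 (17.1 ± 2.81) above Pdk2 (6.98 ± 2.21), each without overlap. With the longest basic coding transcript as the length, Pdk2 and Pdk1 preceded Pgam1 in the wild type, and Pgam1 and Pdha1 overlapped in the knockout. Pdk1 (23.4 ± 2.39) was above Pdk3 in 8 of 8 knockout libraries, though their ranges overlapped. Ldhb was the lowest in both genotypes.

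Promoter windows of all 10 genes were found in the RefSeq table for GRCm38.p6, in 14 windows of 300 bases (250 before and 50 after a start site). They are shown for 4 genes that rose in every knockout library and for the 2 that were not called, since the HIF-binding core is a short sequence that can be looked for in them. Capitals mark ACGTG or GCGTG on either strand, and the palindrome CACGTG counts on both.
Pgk1, chrX:106186850-106187149, + strand: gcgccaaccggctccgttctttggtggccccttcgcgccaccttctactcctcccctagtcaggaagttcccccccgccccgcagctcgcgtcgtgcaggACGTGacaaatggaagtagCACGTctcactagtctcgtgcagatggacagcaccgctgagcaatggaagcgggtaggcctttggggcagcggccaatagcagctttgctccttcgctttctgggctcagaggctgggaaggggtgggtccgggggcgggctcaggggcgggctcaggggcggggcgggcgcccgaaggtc
Ldha, chr7:46845554-46845853, + strand: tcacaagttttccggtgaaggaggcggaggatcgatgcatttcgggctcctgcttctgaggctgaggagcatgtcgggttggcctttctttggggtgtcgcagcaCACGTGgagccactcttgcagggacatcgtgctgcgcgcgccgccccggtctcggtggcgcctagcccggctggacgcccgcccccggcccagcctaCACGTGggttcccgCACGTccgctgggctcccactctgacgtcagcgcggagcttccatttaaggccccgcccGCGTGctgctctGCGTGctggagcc
Pdk1, chr2:71872974-71873273, + strand: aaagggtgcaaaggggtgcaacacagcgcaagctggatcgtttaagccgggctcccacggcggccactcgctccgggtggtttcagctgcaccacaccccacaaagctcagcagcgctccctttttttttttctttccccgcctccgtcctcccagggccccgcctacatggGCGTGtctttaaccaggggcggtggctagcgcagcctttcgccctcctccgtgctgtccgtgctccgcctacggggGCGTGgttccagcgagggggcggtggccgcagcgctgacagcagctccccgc
Pdk3, chrX:93832101-93832400, - strand: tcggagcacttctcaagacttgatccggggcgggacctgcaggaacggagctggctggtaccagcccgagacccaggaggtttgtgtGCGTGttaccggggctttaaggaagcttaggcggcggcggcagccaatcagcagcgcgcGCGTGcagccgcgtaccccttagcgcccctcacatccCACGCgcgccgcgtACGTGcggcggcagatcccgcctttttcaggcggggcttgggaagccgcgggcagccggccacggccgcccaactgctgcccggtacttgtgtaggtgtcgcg
Ldhb, chr6:142507908-142508207, - strand: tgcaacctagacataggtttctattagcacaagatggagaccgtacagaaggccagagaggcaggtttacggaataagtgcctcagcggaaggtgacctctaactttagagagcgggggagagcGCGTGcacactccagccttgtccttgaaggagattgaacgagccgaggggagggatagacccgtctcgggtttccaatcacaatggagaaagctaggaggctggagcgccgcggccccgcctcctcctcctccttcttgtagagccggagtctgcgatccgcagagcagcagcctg
Pdk2, chr11:95041322-95041621, - strand: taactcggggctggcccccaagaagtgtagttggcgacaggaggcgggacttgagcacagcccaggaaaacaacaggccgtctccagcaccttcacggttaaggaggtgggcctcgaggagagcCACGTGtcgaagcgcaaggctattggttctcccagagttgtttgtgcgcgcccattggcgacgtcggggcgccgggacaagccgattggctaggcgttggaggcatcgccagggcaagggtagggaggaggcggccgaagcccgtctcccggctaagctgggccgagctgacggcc
Ldha, Pdk1 and Pdk2 have 2 windows each in the table, and the one with more matches is shown. The Ldha window shown held 7 matches and its other window 2. Those shown for Pdk1 and Pdk2 held 2 each, and the other window of each held 0. Pdk3 had 4 matches, Pgk1 2 and Ldhb 1. Of the genes not shown, Pdha1, which did not rise, also had 4 matches, Pgam1 had 3 and Pdk4 had 1. Pkm had 2 in the one of its windows that held any. Every one of the 10 genes had a match in at least 1 window, including Ldhb and Pdk2, and 3 of the 14 windows held none, the third being a window of Pkm. Among all 32851 windows of this length in the table, 43.8% held at least 1 match (ACGTG 19.6%, GCGTG 32.4%). A match is a description of the letters and not a binding site.

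The enzyme steps next to these genes were read from 4 lists. Of 8 enolases and tissue isozymes, 5 were tested and 1 was called, beside 48.3% of all tested genes. The called gene was Eno1, the common enolase between Pgam1 and Pkm. Eno1 rose 2.96-fold, from 194 ± 22.3 to 575 ± 80.3 CPM (log2 scale 1.57, SE 0.0937, edgeR adjusted p = 5.95e-11). The muscle forms Pgam2 (1.195, adjusted p = 0.106) and Eno3 (0.46, adjusted p = 0.576) varied widely and were not called. The median of Pgam2 was 8.15 CPM in knockout and 4.30 CPM in wild type libraries. That of Eno3 went against the sign of its fold change, at 18.5 CPM in knockout and 25.4 CPM in wild type libraries. Pgk2, the testis form of phosphoglycerate kinase, had no count in any library.

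Of the 7 other genes of the pyruvate dehydrogenase complex and its phosphatases, 2 were higher, 2 lower and 3 not past the threshold, with a median log2 fold change of 0.03; of all tested genes 25.6% were called higher and 22.7% lower. Both catalytic phosphatase subunits fell. Pdp1 lay between 49.0 and 65.8 CPM in the wild type and between 28.3 and 48.1 CPM in the knockout, without overlap (-0.54, SE 0.0983, adjusted p = 1.37e-04). Pdp2 went from 5.49 ± 1.12 to 3.14 ± 0.508 CPM (SD, n = 8), a change of -0.81 (SE 0.143, edgeR, adjusted p = 1.11e-04), with a small overlap. With total counts Pdp1 stayed lower at -0.24 but missed the threshold (adjusted p = 0.0826). Pdhx, which anchors the E3 subunit in the complex, was slightly higher (0.34, adjusted p = 0.00964), as was the E1 beta subunit Pdhb (0.20, adjusted p = 0.0394). The Pdhx call was lost in 3 of 28 alternatives, among them the muscle score as covariate (0.27, edgeR adjusted p = 0.0546). The Pdhb call was lost in 15 of 28, including 9 single libraries left out (knockout 4, 5, 6 and 7, and wild type 1, 2, 3, 6 and 7), DESeq2 (0.18, adjusted p = 0.0542) and the muscle covariate (0.15, adjusted p = 0.143).

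Of 8 pyruvate carriers and other pyruvate enzymes, 3 were higher and 2 lower, with a median of -0.20, beside 25.6% and 22.7% of all tested genes. The malic enzymes, which make pyruvate from malate, went both ways. Cytosolic Me1 rose 7.10-fold, from 17.3 ± 3.29 to 123 ± 18.9 CPM (log2 scale 2.83, SE 0.1201, edgeR adjusted p = 5.63e-13), and mitochondrial Me2 rose 3.94-fold, from 15.97 ± 2.05 to 62.9 ± 12.4 CPM (1.98, SE 0.113, adjusted p = 2.84e-11). Mitochondrial Me3, named here after its values were seen, fell from 16.3 ± 3.98 to 6.34 ± 3.101 CPM (-1.35, SE 0.258, adjusted p = 3.32e-04). Gpt2, the mitochondrial alanine aminotransferase, rose 3.08-fold (1.62, SE 0.210, adjusted p = 4.74e-06). These 4 genes did not overlap between the genotypes, a pattern shown by 19.4% of all tested genes. Me1, Me2 and Gpt2 were named for the size of their change. Exons of Me1 and Me3 overlap antisense genes, so their counts are uncertain to that extent. Of the mitochondrial pyruvate carrier, Mpc1 was measured at -0.25 (edgeR adjusted p = 0.0695) and Mpc2 at -0.21, just past the threshold (adjusted p = 0.0389). The Mpc2 call was lost in 13 of 28 alternatives, 9 of them single libraries left out (knockout 1, 2, 4, 7 and 8, and wild type 4, 5, 6 and 8), and its sign turned with total counts.

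Of 16 genes of the citrate cycle, which burns the acetyl-CoA, 1 was called higher, 2 lower and 13 did not pass the threshold. Among all tested genes 25.6% were called higher and 22.7% lower. The log2 fold changes of all 16 lay between -0.28 and 0.23 with a median of 0.06. Dlst, the E2 subunit of the 2-oxoglutarate dehydrogenase complex, was higher (0.22, SE 0.0482, edgeR adjusted p = 8.67e-04). Suclg2 (-0.28, adjusted p = 0.0120) and Sdha (-0.26, adjusted p = 0.00328) were lower. With total counts neither was called, at 0.03 and 0.04, where the median of all tested genes was 0.32. The Suclg2 call was also lost with the muscle score as a covariate (-0.20, edgeR adjusted p = 0.0857).

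**Figure D3:**
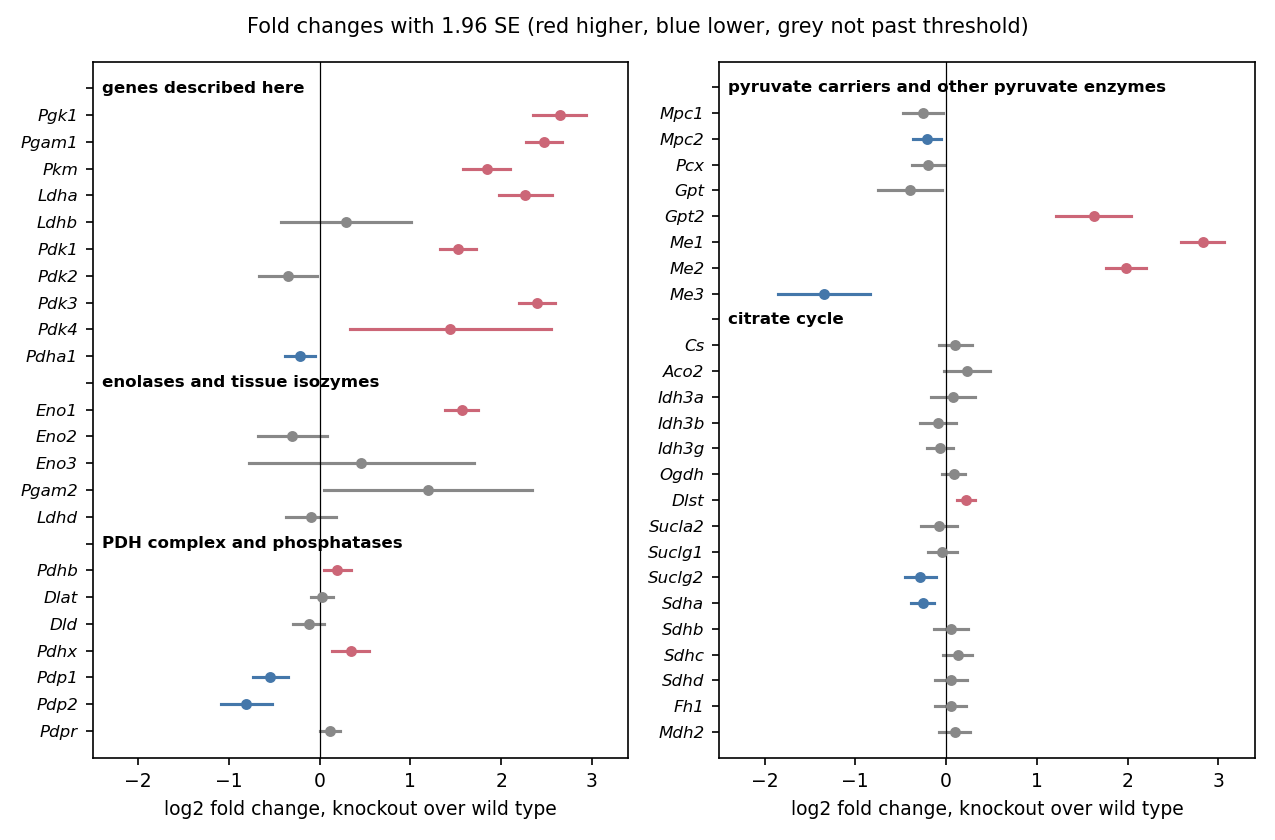
Log2 fold change of knockout over wild type for each tested gene of the 5 lists (x axis), with 95% intervals as bars; red is higher, blue lower and grey not past the threshold. Pgk1, Pgam1, Pkm, Ldha, Pdk1, Pdk3, Eno1, Me1, Me2 and Gpt2 stand between 1.52 and 2.83, while the citrate cycle genes stay between -0.28 and 0.23.

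Skeletal muscle RNA differed between libraries and moved with some of these genes. The muscle score, the mean log2 CPM of 14 markers, spanned 3.22 to 9.06 in knockout and 0.941 to 8.27 in wild type libraries, with 13 of the 14 markers not past the threshold between genotypes and Myh2 higher. The scores fell into separate bands, so no correlation is given. In knockout libraries 6, 7 and 8, with scores of 8.43 to 9.06, Pdk2 was at 23.3 to 33.5 CPM and Pdk4 at 15.6 to 48.1 CPM; in the other 5 knockout libraries, with scores of 3.22 to 6.05, Pdk2 was at 14.7 to 20.2 CPM and Pdk4 at 2.62 to 17.0 CPM. Ldha went the other way, with 731 to 916 CPM in those 3 libraries and 797 to 1412 CPM in the other 5, and so did Pdk3, with 35.5 to 41.3 and 40.3 to 56.5 CPM. The same 3 libraries also had the highest endothelial scores (4.67 to 5.25 against 1.43 to 3.73) and adipocyte scores (0.37 to 1.82 against -2.09 to -0.34). Of the 6 adipocyte markers only 1, Fabp4, passed the filter on low counts, so the adipocyte score rests mostly on genes near the floor. In the wild type the highest Pdk4 value, 14.6 CPM, was that of library 5, whose muscle score of 8.27 was the highest of its genotype. The other genes did not follow the knockout pattern there: library 5 had Pdk2 at 26.6 CPM, below the median of 29.3 CPM in the other 7 wild type libraries, and the highest wild type Ldha, 274 CPM against a median of 180.3 CPM.

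**Figure D4:**
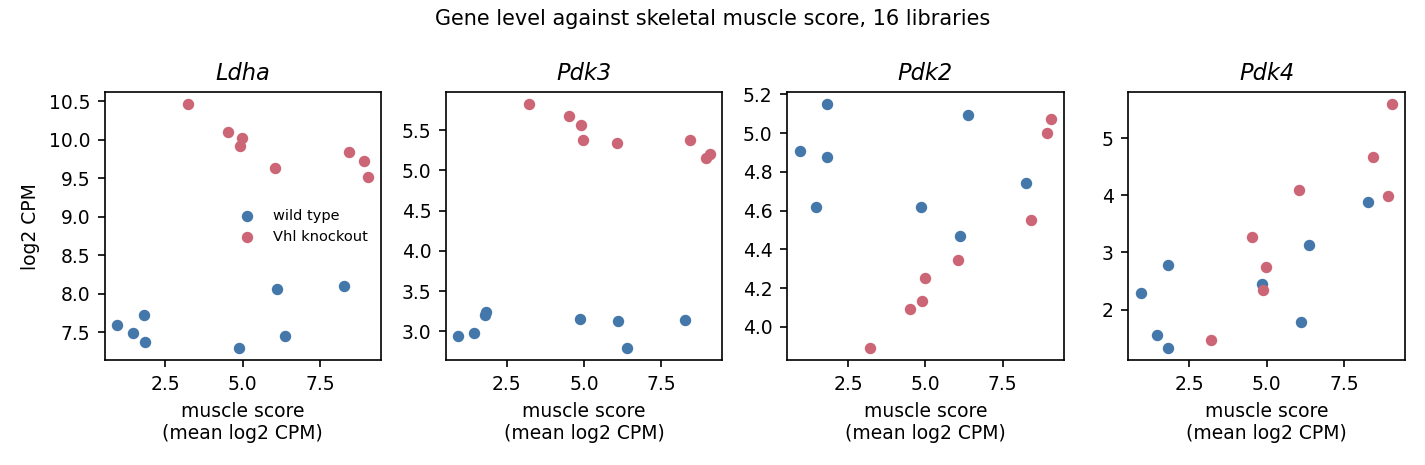
Log2 CPM of Ldha, Pdk3, Pdk2 and Pdk4 (y axes) against the skeletal muscle score, the mean log2 CPM of 14 muscle markers (x axes), 1 point per library, wild type blue and knockout red. Ldha and Pdk3 of the knockout stay above the wild type at every score, whereas the 3 knockout libraries with scores of 8.43 to 9.06 hold the 3 highest knockout values of Pdk2 and, for Pdk4, 15.6 to 48.1 CPM against 2.62 to 17.0 CPM in the other 5.

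Without the 4 libraries whose muscle score exceeded 8 (knockout 6, 7 and 8 and wild type 5, an alternative chosen after the data were seen), the 5 knockout libraries lay below the 7 wild type libraries for Pdk2, at 14.7 to 20.2 against 22.0 to 35.4 CPM. The 3 knockout libraries left out held the 3 highest knockout values of Pdk2, so this gap and the call without them depend on that choice. Pdk2 was called lower without the 4 libraries, at -0.69 (SE 0.125, edgeR adjusted p = 2.80e-04), and at -0.53 when the muscle score was a covariate (edgeR adjusted p = 0.0189). Pdk4 was not called in either case, at 0.74 (adjusted p = 0.189) and 0.45 (adjusted p = 0.411). Pdha1 was not called either, at -0.18 (adjusted p = 0.134) and -0.22 (adjusted p = 0.0630). The rises of Pgk1 (2.83), Pgam1 (2.61), Pkm (2.00), Ldha (2.46), Pdk1 (1.54) and Pdk3 (2.52) were as large without these libraries as with them. The part of muscle RNA in the values of Pdk2 and Pdk4 cannot be read from these fits and was not tested.

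Endothelial and erythroid markers were higher in the knockout, 6 of 7 and 5 of 5 tested genes, and neither score overlapped between genotypes, so these cell types and the genotype cannot be told apart across libraries. The Y-linked level, the mean log2 CPM of Ddx3y, Uty, Kdm5d and Eif2s3y, differed between libraries. It was 5.61 to 5.72 in knockout libraries 1 and 6 and wild type libraries 7 and 8, and -2.73 to -2.63 in all others. With the Y-linked level as a covariate the X-linked genes Pgk1, Pdk3 and Pdha1 were at 2.65, 2.40 and -0.21, and Pdk4 lost its call (1.42, edgeR adjusted p = 0.0561).

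**Figure D5:**
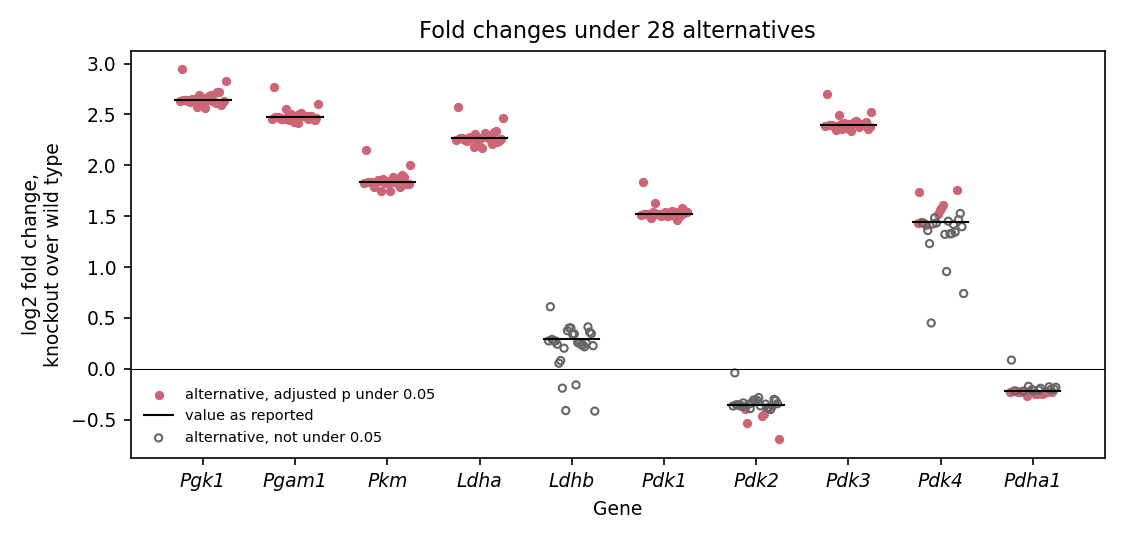
Log2 fold change of each gene (y axis) under 28 alternatives, filled red where the adjusted p was under 0.05 and open grey where it was not, with the reported value as a black line. Pgk1, Pgam1, Pkm, Ldha, Pdk1 and Pdk3 pass under all 28, Pdk4 under 10, Pdha1 under 16, Pdk2 under 5 and Ldhb under none.

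By Pearson correlation of log2 CPM over the 16 libraries, the genes most like Ldha were Tpi1 (0.996), Id2 (0.993) and Eno1 (0.992), of which Tpi1 and Eno1 are glycolytic enzymes. Those most like Pdk1 were Vldlr, Prelid2 and Bend5, each at 0.990. For Pdk4 the 3 closest were weaker, Trim35 (0.916), Acadl (0.896) and Frem1 (0.894), and Acadl encodes the long-chain acyl-CoA dehydrogenase of fatty acid oxidation. These values rest mostly on the step between genotypes for Ldha and Pdk1, and all points share the same libraries.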

How the data were processed

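The deposited files hold whole-number counts per gene for 1 library each. Kallisto, featureCounts and the build GRCm39 are named in the submitters' processing notes, without role or version; annotation and strand are not given in the sources used here. Symbols were matched for 25614 of 25719 identifiers. Exon lengths and overlaps came from GENCODE M21 (GRCm38) and promoters from RefSeq (GRCm38.p6), so no gene coordinates are given for the counts.

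Counts were tested with edgeR 4.0.16 in R 4.3.3 (TMM, default expression filter, robust quasi-likelihood F test, genotype as the only term, 2-sided). SE is the absolute log2 fold change over the square root of F. Log2 CPM used a prior count of 2 and ratios 0.5 counts. Ratios were tested with exact permutation over libraries. The fit was tested on simulated data. Alternatives used DESeq2 1.42.0 and limma 3.58.1. Within each genotype, no pair of libraries was as alike as repeat sequencing of the same library would be. The most similar pair, of wild type libraries, had a chi-square of 6.56 per degree of freedom. Whether libraries share an animal cannot be read from that value.

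The genes and lists were chosen with earlier results of these data known. Named were the 10 genes, of each pathway list the 3 called genes of largest change, and the 3 genes most like Ldha, Pdk1 and Pdk4; Me3, Pdhb, Mpc1, Mpc2, Pgam2, Eno3 and Pgk2 were added after their values were seen. Planned correlations with the muscle score are not given, because the scores fell into bands.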

Additional observations from a re-analysis of the deposited data

Results flagged for a closer look

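In 32 checks of 8 libraries each (10 genes and 6 ratios in 2 genotypes), 1 library lay far from the others of its group, where chance gives about 1 in 20. Knockout library 1 had the highest log2 ratio of Pdk1 to Pdha1, 0.661, against 0.416 in the next library. It also had the lowest Pdha1 level of all 16 libraries, 115 CPM.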

How the results depend on the processing

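Pgk1, Pgam1, Pkm, Ldha, Pdk1 and Pdk3 stayed higher and past the threshold in all 28 alternatives, with log2 fold changes of 2.57 to 2.94, 2.41 to 2.77, 1.74 to 2.15, 2.17 to 2.57, 1.46 to 1.84 and 2.34 to 2.70. Pdk4 lay between 0.45 and 1.76 and passed in 10, Pdha1 in 16 and Pdk2 in 5. All 6 ratios kept their direction and call in each of theirs. Ratios with Pdk1, Ldha or Pkm are not independent of the rises of those genes. The number of the 10 genes called higher was 6 or 7 throughout. The number called lower, 1 in the report, was 0 with total counts, 0 without an expression filter, 2 with the replicate number as a block (Pdha1 and Pdk2), and 0 to 1 when each library was left out in turn. With total counts all tested genes had a median of 0.32 in place of 0.02, 85.4% of called genes were higher against 53.0% with TMM, and the sign turned for Pdha1 (0.0865), Mpc2 (0.0910), Suclg2 (0.0283) and Sdha (0.0431). Ldhb turned negative with the muscle score as a covariate (-0.19), without knockout replicate 6 (-0.16, with other libraries left out up to 0.41), without knockout libraries 5, 6 and 8 and wild type library 8 (-0.41) and without the 4 libraries of high muscle score (-0.41); a total of 342 counts limits it. Replicate numbers did not pair the libraries: deviations of same-numbered libraries correlated between -0.397 and 0.394, only 3 of 8 pairs exceeded 0.1, and 2 of 16 libraries correlated best with their own number. Beside Pdk2 and Pdk4 the block changed no call among the 10 genes.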

Other observations

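Knockout library 5, which had the lowest muscle score of its genotype (3.22), held the highest knockout value of 6 of the 10 genes (Pgk1, Pgam1, Pkm, Ldha, Pdk3 and Pdha1) and the lowest of 2 (Pdk2 and Pdk4). In the wild type, library 5 held the highest value of 5 genes and library 3 the lowest of 4. Map3k15, which shares exon bases with Pdha1, was among the 3 genes most like it over the 16 libraries (Pearson correlation 0.941), and Gm49759 was the gene most like Pkm (0.996).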
